A study of Mus musculus with 18 samples.

Results

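The 6 genes described here, Mcm2, Mcm3, Mcm4, Mcm5, Mcm6 and Mcm7, encode the subunits of the MCM complex, the helicase of DNA replication. They were taken by symbol from the 3 stage tables of the series, and all 6 were present in each table, which held 7082 genes for E2.5, 6648 for E3.75 and 6545 for E4.5 (8202 genes in any table, 5430 in all 3). The libraries came from untreated mouse embryos of the CD1 strain, flushed from the oviduct or uterus. They were either wild type (Oct4 +/+) or Oct4 null (Oct4 -/-) at E2.5, before the blastocyst forms, at E3.75, the blastocyst, or at E4.5, the late blastocyst. Each of the 6 groups had 3 libraries, 18 in all. The question, by the series title, is that of genes with an Oct4 requirement in the embryo. Oct4, the product of Pou5f1, is a transcription factor of pluripotent cells. The labels describe neither the deleted part of Pou5f1 nor any maternal Oct4 that remained. The libraries hold RNA of whole embryos, in which fewer cells of a type and less RNA per cell cannot be told apart.

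In G1 phase the origin recognition complex, CDC6 and CDT1 load MCM rings onto DNA, a step called licensing, and geminin blocks reloading after S phase has begun. In S phase CDC45 and the GINS complex bind the loaded rings and turn them into the moving helicase, behind which the DNA polymerases work. E2F factors are known activators of MCM gene transcription at the entry into S phase, and early embryos and pluripotent cells divide with short gap phases.

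Promoter sequence is shown for the 3 genes that passed the test at E3.75 (Mcm2, Mcm5 and Mcm6, described further on) and for 1 gene that did not (Mcm7), so that their E2F matches can be compared. The sequences are RefSeq windows on GRCm38.p6, from 250 bases before to 50 bases after the annotated start, written 5′ to 3′ on the strand of the gene. Mcm2 is at chr6:88898731-88899030 (minus strand), Mcm5 at chr8:75109259-75109558 (plus strand), Mcm6 at chr1:128359656-128359955 (minus strand) and Mcm7 at chr5:138171834-138172133 (minus strand, the first of its 2 windows). Capitals mark exact matches, on either strand, to an E2F word (TTTGGCGC, TTTCCCGC, TTTCGCGC or TTTGCCGC), and matches that overlap run together.
Mcm2: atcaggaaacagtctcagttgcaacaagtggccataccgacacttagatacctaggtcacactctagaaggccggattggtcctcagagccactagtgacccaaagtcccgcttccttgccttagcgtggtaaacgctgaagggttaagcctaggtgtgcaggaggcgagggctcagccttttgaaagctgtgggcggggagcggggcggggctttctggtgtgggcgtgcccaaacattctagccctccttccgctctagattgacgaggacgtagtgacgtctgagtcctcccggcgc
Mcm5: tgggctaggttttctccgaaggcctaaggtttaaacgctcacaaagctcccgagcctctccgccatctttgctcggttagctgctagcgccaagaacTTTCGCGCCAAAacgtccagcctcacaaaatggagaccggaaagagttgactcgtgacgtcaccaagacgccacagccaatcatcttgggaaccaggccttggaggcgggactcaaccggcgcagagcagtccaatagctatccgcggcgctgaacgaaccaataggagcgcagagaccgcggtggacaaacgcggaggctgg
Mcm6: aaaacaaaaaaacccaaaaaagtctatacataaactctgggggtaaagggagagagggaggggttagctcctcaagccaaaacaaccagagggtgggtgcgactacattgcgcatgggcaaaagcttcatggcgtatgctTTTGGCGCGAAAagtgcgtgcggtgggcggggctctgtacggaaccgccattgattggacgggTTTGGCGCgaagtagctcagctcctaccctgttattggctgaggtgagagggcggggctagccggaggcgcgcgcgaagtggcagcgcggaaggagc
Mcm7: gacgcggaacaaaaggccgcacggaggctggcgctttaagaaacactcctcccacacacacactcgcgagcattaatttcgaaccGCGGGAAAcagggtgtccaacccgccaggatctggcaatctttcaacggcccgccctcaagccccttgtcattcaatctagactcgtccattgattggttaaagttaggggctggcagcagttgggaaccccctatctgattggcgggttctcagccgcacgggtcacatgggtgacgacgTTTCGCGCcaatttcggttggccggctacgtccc

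Of the 5 genes with a window (Mcm2, Mcm3, Mcm5, Mcm6 and Mcm7), 4 held an E2F word, whereas 2.26% of all 32851 windows did. Mcm2 was the gene without a match. A gene was counted if any of its windows matched, whereas the shares of all windows are per window. Mcm7 had 2 windows, and its second held no E2F word. Mcm5 had 2 overlapping matches, Mcm6 had 3 of which 2 overlapped, and Mcm7 had 2, the latter of them sharing 1 base with a CCAAT match. CCAAT was found in the windows of all 5 genes, against 37.4% of all windows, and the GC box GGGCGG in 4 of 5, against 35.7%. The word TTTGAA, a core of the cell cycle homology element, was found in Mcm2 alone of the 5, against 17.9% of all windows. Presence of an E2F word did not separate the genes that passed at E3.75 from those that did not: Mcm2 passed without one, and Mcm3 and Mcm7 held one and did not pass. These matches describe letters in a window and show no binding.

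Levels are in CPM, reads of a gene for every 1000000 reads of the library in its table. Whole reads could be recovered from the CPM, and each library held between 364936 and 1922432 of them. The MCM values rested on 28 to 768 reads per gene and library. At each stage the median null library was deeper than the median wild type library, although null library 1 of E4.5 was the shallowest of all, with median reads of 1917754 and 916720 (E2.5), 1375610 and 576078 (E3.75) and 1314657 and 543033 (E4.5). In every group the third library could nearly be written as a mix of its first and second: it varied around the mix by 0.997 to 1.26 times what read sampling alone gives, where first and second libraries varied by 1.14 to 2.80 times. Calls are therefore also given with the first 2 libraries of each group alone. The header gives the E4.5 wild type libraries 1 shared name, so they are called A, B and C. Pou5f1 itself had 1809, 2093 and 1723 CPM in wild type against 931, 1011 and 963 CPM in null libraries of E2.5. In E3.75 libraries it had 599.9, 380 and 547 CPM against 221, 286 and 266 CPM, and in E4.5 libraries 274, 235 and 183 CPM against 142, 95.1 and 96.8 CPM. The null libraries were the lower ones at all 3 stages. Reads come mostly from the 3′ ends of transcripts, so the remaining Pou5f1 reads do not show whether a functional product remained.

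At E3.75 every MCM gene had a lower mean in null than in wild type embryos, and Mcm2, Mcm5 and Mcm6 passed the test. In this test limma compared log2(CPM + 1) over all genes of the stage, with Benjamini-Hochberg adjustment and a threshold of 0.05, and fold changes are differences on that log2 scale, null minus wild type. The 3 calls, all lower, stand beside 545 of 6648 genes called at this stage (8.2%), of which 306 were lower (4.6%). The split of those calls turned with the scaling, from 239 higher and 306 lower to 287 higher and 216 lower with TMM factors. The median fold change of the 6 genes was -0.39, against -0.04 for all genes.

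Mcm2, a subunit that binds histones H3 and H4 and forms a side of the gate through which DNA enters the ring, had 346, 417 and 422 CPM in wild type libraries 1 to 3 and 223, 270 and 266 CPM in null libraries. All 3 null libraries lay below all wild type libraries, a pattern that 15.7% of the genes of this stage showed. Its log2 fold change was -0.64 (SE 0.11, 95% interval -0.87 to -0.41, adjusted p = 0.00108, limma). It kept its call in all 17 alternatives, with adjusted p between 0.000227 and 0.0209, the highest with the first 2 libraries of each group.

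Mcm6, 1 of the subunits of the MCM4, MCM6 and MCM7 core, had 263, 351 and 342 CPM in wild type libraries and 216, 245 and 230 CPM in null libraries. Wild type library 1 was the lowest of its group and still lay above every null library. Of all genes of this stage, 15.7% had every null library below every wild type library. The log2 fold change was -0.46 (SE 0.12, 95% interval -0.70 to -0.21, adjusted p = 0.0192, limma).

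Mcm5, the partner of MCM2 at the gate, had 188, 259 and 262 CPM in wild type libraries and 123, 199 and 179 CPM in null libraries. The groups overlapped, since null library 2 lay above wild type library 1. The log2 fold change was -0.51 (SE 0.16, 95% interval -0.84 to -0.19, adjusted p = 0.0461, limma).

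Library 1 was the lowest for Mcm2, Mcm5 and Mcm6 in both genotypes at E3.75. The Mcm6 call was lost without wild type library 2 (adjusted p = 0.0684) or 3 (0.114) or null library 1 (0.0942) or 3 (0.0662), with the first 2 libraries of each group (0.271) and in 1 fit over all 18 libraries (0.103), which called 3.92% of its genes. The Mcm5 call was lost under the same settings (adjusted p 0.0548 to 0.290), and also with TMM factors (0.0746), with DESeq2 size factors (0.0748), with a pseudocount of 0.1 (0.0516), in DESeq2 (0.114) and with reads thinned to the depth of the shallowest library (0.0813). With the first 2 libraries of each group, 1 of the 6 genes, Mcm2, was called, beside 2.33% of all genes.

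Mcm3, Mcm4 and Mcm7 did not pass at E3.75. Mcm3, the subunit next to MCM5 in the ring, had 92.1, 95.9 and 116 CPM in wild type libraries and 77.5, 81.4 and 82.8 CPM in null libraries. Its null libraries all lay below its wild type libraries, as did those of 15.7% of the genes of this stage. Its log2 fold change was -0.32 (SE 0.16, adjusted p = 0.224, limma). Mcm4, a catalytic core subunit, had 92.1, 76.4 and 88.5 CPM against 65.9, 73.4 and 82.1 CPM, with a log2 fold change of -0.21 (95% interval -0.56 to 0.13, adjusted p = 0.477, limma). Mcm7, another core subunit, had 160, 152 and 139 CPM against 145, 118 and 127 CPM, with a log2 fold change of -0.21 (95% interval -0.49 to 0.07, adjusted p = 0.376, limma). For both genes the null and wild type libraries overlapped. The last 1000 bases of the Mcm7 transcript overlap an exon of Cops6 on the opposite strand, and as the use of strand in counting is not stated, reads of these 2 genes cannot be told apart. The 3 genes stayed below 0 and above the threshold in all 17 alternatives.

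**Figure D1:**
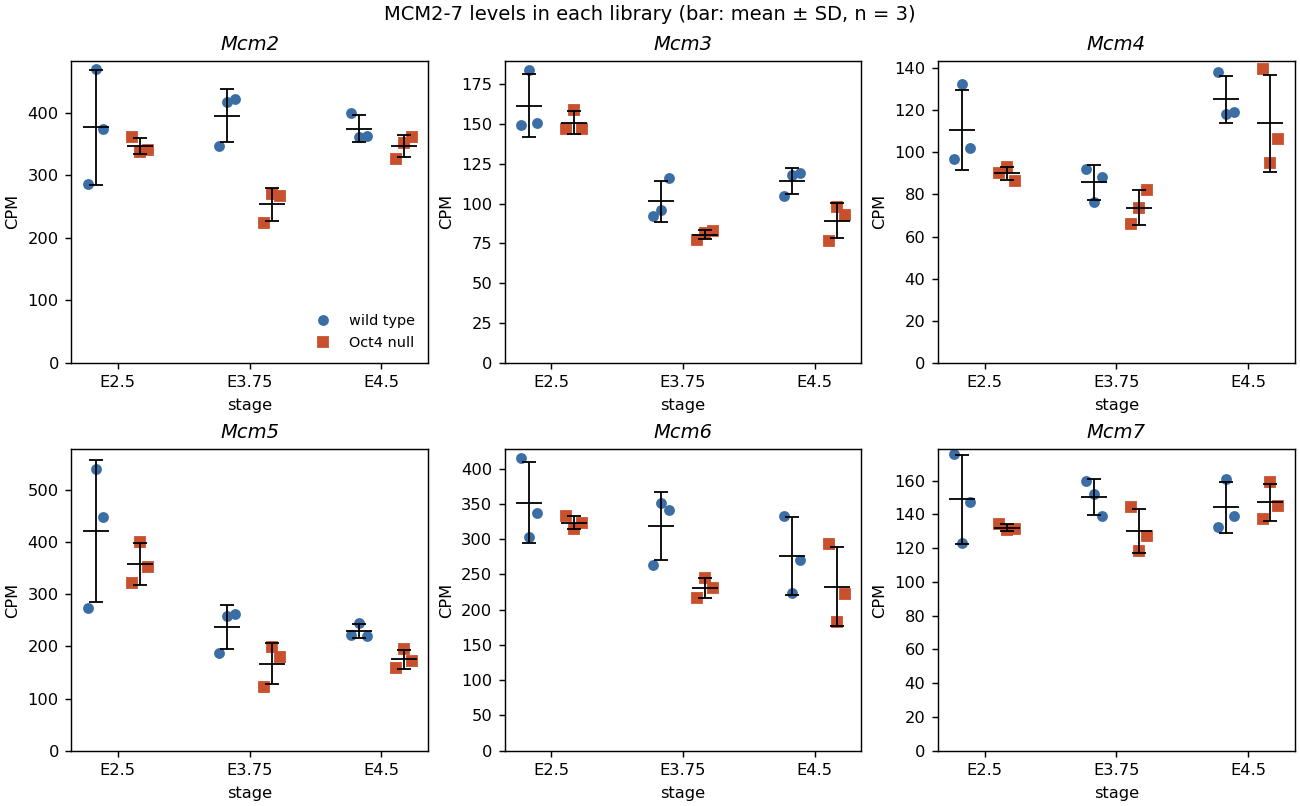
Level of each MCM gene (CPM, linear axis from 0) in each library by stage, wild type as blue circles and Oct4 null as red squares, with the mean and SD of 3 libraries in black. At E3.75 the null libraries of Mcm2 (223 to 270 CPM) sit below all wild type libraries (346 to 422 CPM), and at E2.5 the wild type libraries spread more widely than the null libraries for every gene.

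**Figure D2:**
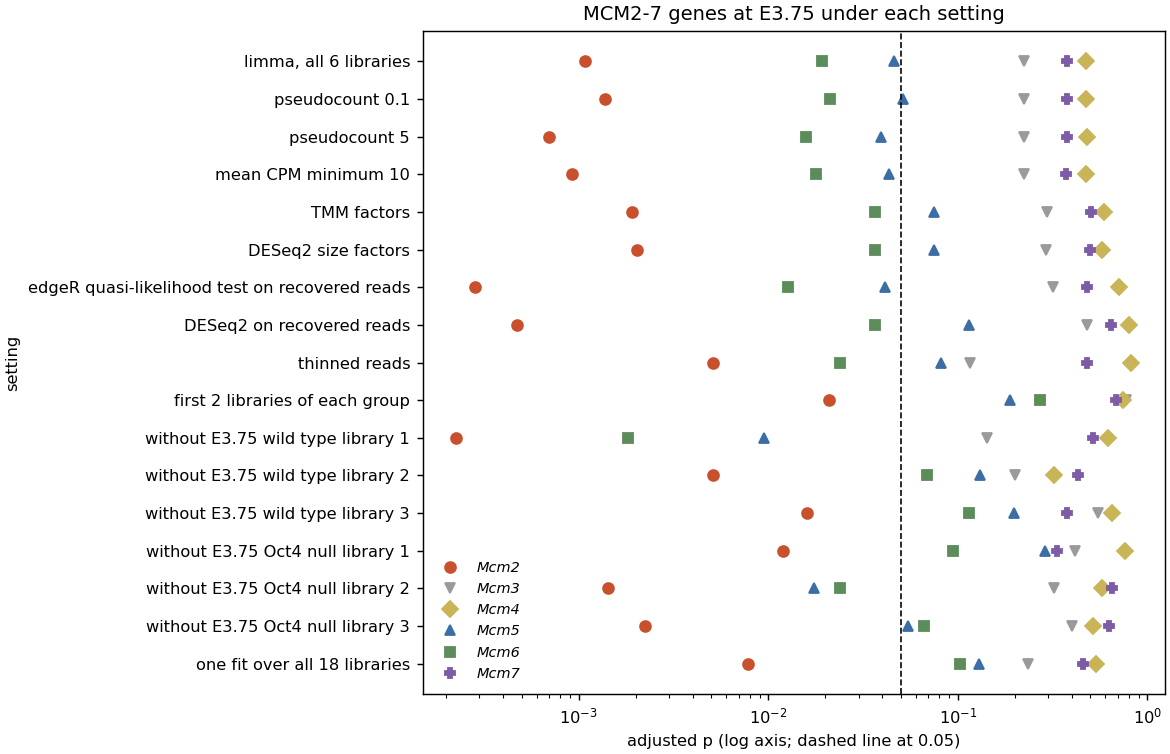
Adjusted p (log axis) of each MCM gene for null against wild type at E3.75, for the limma test on all 6 libraries (top row) and under the alternatives named at the left, with a dashed line at 0.05. Mcm2 lies left of the line in every row, Mcm5 and Mcm6 cross it, and Mcm3, Mcm4 and Mcm7 lie right of it in every row.

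Before the blastocyst, at E2.5, none of the 6 genes passed the test (0 of 6, beside 42 of 7082 genes or 0.593%), and none had an unadjusted p under 0.05 (20.4% of all genes did). edgeR and DESeq2 called none of them either. All 6 means were lower in null embryos, with log2 fold changes from -0.28 to -0.09 and a median of -0.13 (all genes, -0.02). Mcm2 had 286, 470 and 375 CPM in wild type libraries and 361, 338 and 340 CPM in null libraries. Mcm5 had 273, 540 and 447 CPM against 321, 399 and 352 CPM, and Mcm6 had 416, 303 and 337 CPM against 333, 315 and 323 CPM. The null libraries fell inside the wild type range for all 3 genes. Wild type library 1 was the lowest of its group for Mcm2 and Mcm5 and the highest for Mcm6 and Mcm7.

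Mcm4 was the only member whose groups did not overlap at E2.5, with 97.1, 132 and 102 CPM in wild type libraries and 90.3, 93.1 and 86.6 CPM in null libraries, a pattern shown by 14.1% of all genes of the stage. Its log2 fold change was -0.28 (95% interval -0.63 to 0.07, adjusted p = 0.342, limma). Mcm3 had 149, 184 and 151 CPM against 147, 159 and 147 CPM, and Mcm7 had 176, 123 and 148 CPM against 134, 131 and 131 CPM. Without wild type library 1, Mcm5 was called lower (log2 fold change -0.46, adjusted p = 0.0230, limma), and without wild type library 2 the fold changes of Mcm2, Mcm3 and Mcm5 were above 0, at 0.081, 0.0077 and 0.028.

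In late blastocysts, at E4.5, none of the 6 genes passed, at a stage where limma called 0 of 6545 genes (0%), 985 genes (15%) had an unadjusted p under 0.05, edgeR called 42 genes (0.642%) and DESeq2 called 112 (4.29% of those it tested). Neither edgeR nor DESeq2 called a MCM gene. Pou5f1 itself did not pass in limma at E4.5 (log2 fold change -1.05, adjusted p = 0.125), although edgeR (adjusted p = 0.0264) and DESeq2 (0.000121) called it. Mcm5 had 221, 244 and 221 CPM in wild type libraries A, B and C and 159, 195 and 173 CPM in null libraries 1 to 3, with a log2 fold change of -0.38 (95% interval -0.67 to -0.10, unadjusted p = 0.0139, adjusted p = 0.216, limma). Mcm3 had 105, 118 and 119 CPM against 76.7, 98.1 and 93.1 CPM, with a log2 fold change of -0.36 (adjusted p = 0.331, limma). In both genes all null libraries lay below all wild type libraries, which 9.99% of the genes of the stage also showed.

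Mcm2 had 399.6, 361 and 363 CPM against 326, 351 and 360 CPM at E4.5, so the groups were apart by less than 1 CPM, and its log2 fold change was -0.11 (95% interval -0.35 to 0.12, adjusted p = 0.638, limma). Mcm6 spread widely in both genotypes, at 333, 223 and 270 CPM against 293, 183 and 222 CPM. Mcm4 had 138, 118 and 119 CPM against 140, 95.1 and 106 CPM. Mcm7 had 133, 161 and 139 CPM against 137, 159 and 145 CPM, and its log2 fold change of 0.03 turned to -0.03 with TMM factors and -0.02 with DESeq2 size factors.

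**Figure D3:**
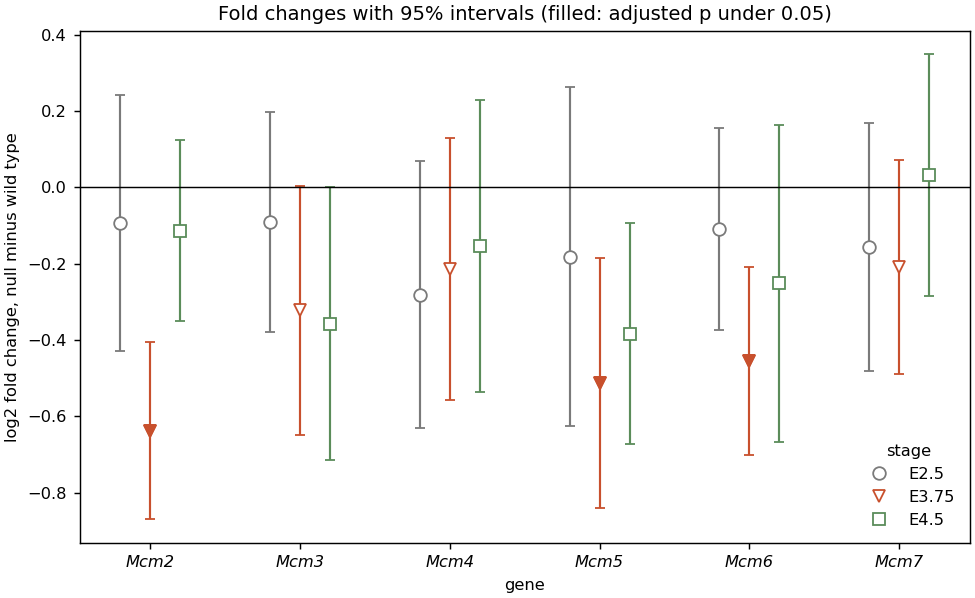
Log2 fold change of each MCM gene, null minus wild type, with its 95% interval from limma, by stage (circles, E2.5; triangles, E3.75; squares, E4.5; filled symbols, adjusted p under 0.05). The filled symbols are Mcm2, Mcm5 and Mcm6 at E3.75, and the E2.5 and E4.5 intervals of those genes reach 0 except that of Mcm5 at E4.5 (-0.67 to -0.10).

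Whether the genotype effect differed between stages was tested as a difference of fold changes in 1 limma fit over all 18 libraries. None of the 6 genes passed in any of the 3 pairs of stages, beside 1.03% of 5430 common genes for E3.75 against E2.5, 0.0921% for E4.5 against E3.75 and 1.01% for E4.5 against E2.5. The greatest differences were those of Mcm2, whose effect was lower by 0.55 on the log2 scale at E3.75 than at E2.5 (difference -0.55, SE 0.19, 95% interval -0.94 to -0.17, adjusted p = 0.151, limma). From E3.75 to E4.5 the Mcm2 difference was 0.53 (95% interval 0.15 to 0.92, adjusted p = 0.201, limma). Without E2.5 wild type library 2 the first of these passed (difference -0.73, adjusted p = 0.0315, limma). For Mcm5 and Mcm6, called at E3.75, the differences against E2.5 were -0.34 (adjusted p = 0.599) and -0.35 (adjusted p = 0.486). The calls at E3.75 and their lack at the other stages are thus not shown to be a difference between stages.

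Levels across stages can be ordered after rescaling each library to the 5430 common genes, which held 96.0% to 97.5% of the reads; the tables were scaled separately, so the order is a description with no test. For Mcm2 the order of group means ran from E3.75 wild type (407 ± 43 CPM, SD, n = 3) through E2.5 wild type (391 ± 95), E4.5 wild type (389 ± 23), E4.5 null (359.9 ± 18) and E2.5 null (359.8 ± 14) to E3.75 null (260 ± 27). Neighbours in that order whose libraries did not overlap were E2.5 null (351 to 376 CPM) and E3.75 null (229 to 277 CPM), and, by less than 1 CPM, E4.5 wild type and E4.5 null. For Mcm5 the order was E2.5 wild type (436 ± 140), E2.5 null (372 ± 41), E3.75 wild type (244 ± 43), E4.5 wild type (238 ± 14), E4.5 null (183 ± 19) and E3.75 null (171 ± 41), with gaps between E2.5 null and E3.75 wild type and between E4.5 wild type and E4.5 null. Mcm3 had the same gap below E2.5, with 168 ± 20 CPM in E2.5 wild type and 157 ± 7.3 CPM in E2.5 null ahead of 119 ± 8.4 CPM in E4.5 wild type, and its lowest group was again E3.75 null (82.6 ± 2.9 CPM). Mcm4 was highest in E4.5 wild type (130 ± 12 CPM) and lowest in E3.75 null (75.7 ± 8.3 CPM), with a single gap, between E2.5 wild type and E2.5 null. In Mcm6 (236 to 365 CPM) and Mcm7 (133 to 155 CPM) all neighbouring groups overlapped. The E3.75 null group had the lowest mean for each of the 6 genes.

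Summed over the 6 genes, wild type and null libraries did not overlap at E3.75, with 1141, 1351 and 1370 CPM against 850, 988 and 968 CPM. The ratio of null to wild type means was 0.726 (SD 0.092). At E4.5 the sums were 1330, 1225 and 1231 CPM against 1132, 1081 and 1100 CPM, a ratio of 0.875 (SD 0.045), and the groups were again apart. At E2.5 they overlapped, with 1396, 1753 and 1560 CPM against 1386, 1435 and 1380 CPM and a ratio of 0.892 (SD 0.103). With the first 2 libraries of each group the ratios were 0.737 at E3.75, 0.866 at E4.5 and 0.896 at E2.5.

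The shares of the members in the sum are given as a description with no test, and Mcm2 also had the largest fold change at E3.75 in these same values. Mcm2 made up 30.3% to 30.9% of the summed CPM in wild type libraries and 26.3% to 27.5% in null libraries, and it was the only one of the 6 whose share did not overlap between genotypes at this stage. The share of Mcm6 was alike, at 24.7% ± 1.5 in wild type and 24.7% ± 0.83 in null (SD, n = 3). Shares of Mcm2 overlapped at E2.5 (20.5% to 26.8% against 23.5% to 26.1%) and at E4.5 (29.4% to 30.1% against 28.8% to 32.8%). Since 3′ reads are captured with a different efficiency for each transcript, a share gives no ratio of subunits, and only its change within a gene can be read.

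**Figure D4:**
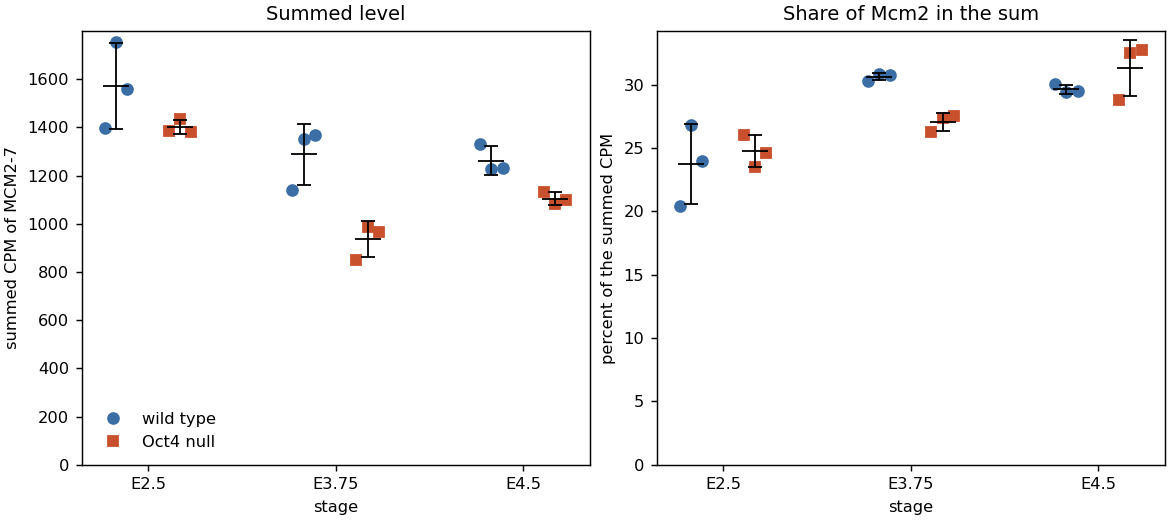
Summed CPM of the 6 MCM genes (left) and the percent of that sum made up by Mcm2 (right) in each library by stage, wild type as blue circles and Oct4 null as red squares, with the mean and SD of 3 libraries. At E3.75 the null libraries lie below the wild type libraries in both panels, at 850 to 988 CPM and 26.3% to 27.5%.

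The genes that act with the MCM ring were read from 7 lists. Of the licensing list (the origin recognition subunits, Cdc6, Cdt1, Gmnn and Mcmbp), 10 of 10 genes were measured at E3.75 and 0 passed in limma. At an unadjusted p under 0.05 there was 1, beside 1513 of all 6648 genes of the stage. Orc1, the ATPase subunit of the origin recognition complex, had the smallest p of that list, with 33.8, 55.2 and 57.3 CPM in wild type libraries and 33.5, 31.3 and 27.1 CPM in null libraries (log2 fold change -0.62, adjusted p = 0.114, limma). Of the other MCM family genes, which are not part of the ring, 0 of 2 measured passed, and Mcm10, a factor of helicase activation, stood at 0.21 (adjusted p = 0.348, limma).

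Among genes of helicase activation and fork protection, 2 of 12 measured passed at E3.75, both lower, beside 4.6% of all genes called lower. Gins2, a subunit of the GINS complex that joins the MCM ring in the active helicase, had 92.1, 103 and 144 CPM in wild type libraries and 60.1, 82.1 and 68.9 CPM in null libraries (log2 fold change -0.66, SE 0.18, adjusted p = 0.0247, limma). Tipin, which with Timeless protects stalled forks, had 102, 91.7 and 97.2 CPM against 57.8, 64.0 and 61.2 CPM (log2 fold change -0.66, SE 0.16, adjusted p = 0.0133, limma). The null libraries of both genes lay below all wild type libraries, a pattern of 4 of the 12 measured genes of this list and 15.7% of all genes.

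Of the polymerase list, with the clamp, clamp loader, RPA and Okazaki fragment genes, 0 of 23 measured genes passed in limma at E3.75. At an unadjusted p under 0.05 there were 4, beside 1513 of all 6648 genes. Rpa1, the large subunit of the protein that coats single-stranded DNA, came nearest (log2 fold change -0.78, adjusted p = 0.0542, limma), and it passed without wild type library 2 (adjusted p = 0.0314) and in the fit over all 18 libraries (0.0458). Of the dNTP supply list 1 of 7 passed, Dut, which removes dUTP, with 226, 188 and 208 CPM against 164, 153 and 150 CPM (log2 fold change -0.40, SE 0.12, adjusted p = 0.0442, limma). Across the licensing, helicase activation, polymerase and dNTP lists together, 0 genes were called higher and 3 lower of 52 measured (5.77%, beside the 4.6% of all genes called lower). Fold changes were above 0 for 22 of the 52 and below 0 for 30 (57.7%, beside 54.6% of all genes). Their median fold change was -0.17, against -0.39 for the MCM genes and -0.04 for all genes.

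Of the G1/S control list 1 of 12 measured genes passed at E3.75, Ccnd3 (cyclin D3), with 212, 249.6 and 208 CPM in wild type libraries and 170, 149 and 163 CPM in null libraries (log2 fold change -0.47, SE 0.12, adjusted p = 0.0196, limma). Of the mitosis list 2 of 13 passed, both lower. Of all genes of the stage 8.2% were called, and 4.6% were called lower. Cdk1, the kinase of mitotic entry, had 158, 101 and 123 CPM against 92.5, 72.0 and 89.0 CPM (log2 fold change -0.57, SE 0.17, adjusted p = 0.0403, limma), and Mki67, which coats mitotic chromosomes, had 86.5, 83.2 and 86.8 CPM against 63.6, 45.1 and 61.2 CPM (log2 fold change -0.60, SE 0.18, adjusted p = 0.0405, limma). At E2.5 and E4.5 limma called none of the genes measured in these 7 lists. Of the replication genes, 12 of 51 at E2.5 (beside 20.4% of all genes) and 4 of 53 at E4.5 (beside 15%) had an unadjusted p under 0.05. Both edgeR and DESeq2 called 0 of the replication genes at both stages.

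These calls were less stable than that of Mcm2. With the first 2 libraries of each group none of Gins2, Tipin, Dut, Ccnd3, Cdk1 and Mki67 passed (adjusted p 0.138 to 0.434). Leaving out wild type library 3, null library 1 or null library 3 ended the calls of Gins2 (adjusted p 0.0762 to 0.185), Tipin (0.0579 to 0.0622) and Dut (0.0811 to 0.188), and DESeq2 called neither Gins2 (0.064) nor Tipin (0.0605). Gins2 was also lost in the fit over all 18 libraries (0.0906) and Tipin with thinned reads (0.051). The Dut call was also lost without wild type library 1 or null library 2 and under TMM factors, DESeq2 size factors, thinned reads, edgeR, DESeq2 and the fit over all 18 libraries (0.0504 to 0.151). That of Ccnd3 was lost without wild type library 2 or 3 or null library 2 or 3 (0.0506 to 0.0759) and with thinned reads (0.134), that of Cdk1 without any 1 library but wild type library 2 (0.0679 to 0.143) and that of Mki67 without any 1 library (0.0562 to 0.178). Cdk1 and Mki67 were also lost with TMM factors (both 0.0535), DESeq2 size factors (0.0512 and 0.0514) and DESeq2 (0.101 and 0.129), and Mki67 in the fit over all 18 libraries (0.199).

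**Figure D5:**
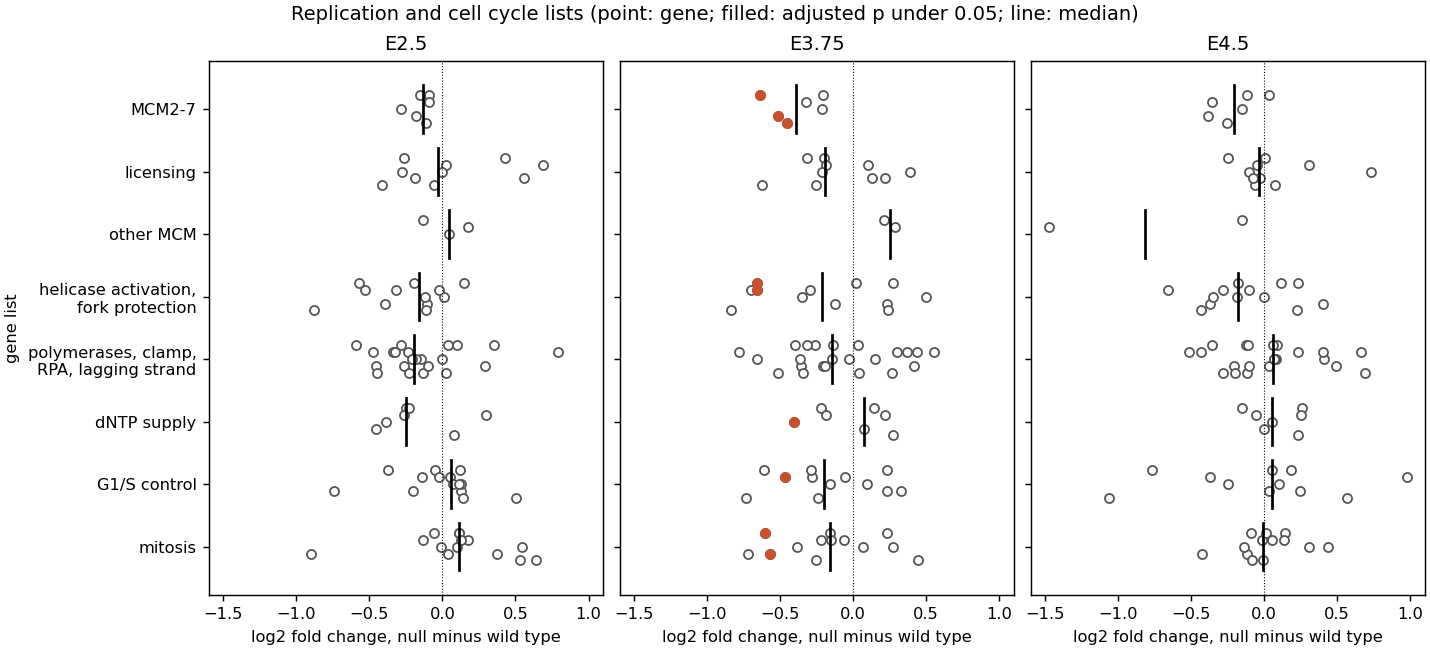
Log2 fold change, null minus wild type, of each measured gene of the MCM genes and the 7 lists at the 3 stages (points; filled where adjusted p was under 0.05), with the median of each list as a line. Filled points appear at E3.75 alone and all lie below 0, 3 among the MCM genes and 6 among the lists.

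Genes with profiles like those of the MCM genes were ranked over the 18 libraries by the root mean square distance of centred log2 values, among 5423 other genes. Closest to the mean profile of the 6 genes were Parp1 (distance 0.138), Nup85 (0.140), Eef1b2 (0.150), Ubxn6 (0.160), Fth1 (0.162) and Eif2s1 (0.162), where the median gene had 0.540. Closest to Mcm2 was Fkbp4, a co-chaperone of Hsp90, with a distance of 0.137. Fkbp4 was picked by its profile over these same libraries, so its lower level in null embryos at E3.75 is no separate support. Its mean was 289 ± 14 CPM there, where wild type had 451 ± 67 CPM (SD, n = 3). Nup85 (0.152) and Parp1 (0.177) followed. Closest to Mcm5 were Ddx54 (0.227), Napa (0.267) and Supv3l1 (0.268), and closest to Mcm6 were Atox1 (0.177), Mrpl13 (0.182) and Polr1c (0.191). None of these neighbours of Mcm5 and Mcm6 was called at E3.75 (adjusted p 0.228 to 0.876, limma). Their log2 fold changes were, in that order, -0.30, -0.27 and -0.33 for Mcm5 and -0.08, -0.18 and -0.04 for Mcm6. Of the other neighbours, Fkbp4 (adjusted p = 0.00103), Eef1b2 (0.00683) and Fth1 (0.0150) were called lower at E3.75 in limma. Parp1, Nup85, Ubxn6 and Eif2s1 were not called. All were picked by profile over these same libraries, so the calls are no separate support.

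Among themselves the MCM genes were not each other's nearest neighbours. Mcm3 lay at 0.235 from Mcm5, the smallest distance between any 2 members, and would have ranked 2 for Mcm5 and 34 for Mcm3. The nearest member to Mcm2 was Mcm4, at 0.265 and rank 78. Mcm5 and Mcm7 lay farthest apart, at 0.583. All profiles share the same libraries and their depths, so these distances are descriptions.

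Markers of the cell types of the embryo were also read, at E4.5 and at E3.75. At E4.5, where limma called no gene, epiblast markers summed to 1565 to 1814 CPM in wild type and 916 to 1195 CPM in null libraries. Primitive endoderm sums were also lower in null libraries there (1435 to 1532 in wild type against 1241 to 1407 CPM). Trophectoderm sums overlapped (13101 to 14065 against 12335 to 13397 CPM). At E3.75, of all 6648 genes, 306 were called lower (4.6%) and 239 higher. There 6 of 9 measured epiblast markers were called lower and 1 (Nanog) higher, and their summed level was 1279 to 1531 CPM in wild type and 1220 to 1330 CPM in null libraries. Of the primitive endoderm markers 4 of 9 were lower and 2 higher, with sums of 1285 to 1444 against 1478 to 1616 CPM. Of the trophectoderm markers 1 of 10 was higher and 0 lower, with sums of 7102 to 8347 against 6365 to 7272 CPM. Of the oocyte and cleavage list 3 of 8 genes were in the table (Khdc3, Tcl1 and Padi6) and 2 were lower, with sums of 2328 to 2566 against 1784 to 1925 CPM. In wild type libraries of E2.5 the list summed to 636 to 647 CPM over other genes, since Tcl1 was not in that table and Nlrp5 was in that table alone. The sums of these stages thus cannot be compared. Whether they hold RNA left from the oocyte was not tested. Haemoglobin genes (3 of the 6 maternal blood and uterus genes were measured, and 2 were higher) summed to 115 to 177 against 176 to 474 CPM. The cumulus markers Has2 and Ptx3 were not in the tables. The part of these differences, and of the difference in depth, in the lower MCM values was not tested beyond the thinned reads, with which Mcm2 (adjusted p = 0.0051) and Mcm6 (0.024) were called and Mcm5 was not, beside 4.51% of all genes.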

How the data were processed

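Polyadenylated RNA of whole CD1 mouse embryos was primed with oligo(dT) and amplified next to the poly(A) tail, so reads lie mostly within the 3′ ends of transcripts, per the labels' protocols. Each genotype and stage had 3 embryos by the series text, which says no more of their origin, and p-values reflect spread among libraries that may be partly technical. The authors deposited 1 table of CPM per stage, and each column sums to 1000000 over its own table. Per the submitters' processing notes, edgeR and the mm9 build were used; not given in the sources used here are the aligner, the counter and whether it used strand. Genes low in most libraries were absent, since each gene reached at least 10.3 CPM in 3 libraries of its table. For 121650 of 121650 deposited CPM values, division by the worth of 1 read gave whole reads (100%, within 0.01 reads).

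limma 3.58.1 (R 4.3.3, trend, two-sided) was fitted per stage to log2(CPM + 1) over all genes of the table, with Benjamini-Hochberg adjustment and no further filter. Fold changes on this scale understate changes of low genes. Differences between stages used all 18 libraries on the common genes. Alternatives were a mean CPM minimum of 10, other pseudocounts (0.1 and 5), TMM and DESeq2 size factors, edgeR 4.0.16 (quasi-likelihood) and DESeq2 1.42.0 on the recovered reads, thinned reads, 1 fit over all libraries, the first 2 libraries of each group, a replicate block and leaving out each library. The limma fit of each stage was checked on simulated reads of independent libraries. That setting differs from these data, in which the third library of each group was nearly a mix of its first and second. The edgeR, DESeq2 and between-stage fits were not checked in this way.

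The members and lists were chosen with earlier results of these data known. Named genes are Pou5f1, the 6 members, each list's passing genes or else its gene with the smallest p at E3.75, and the nearest profiles (6 to the mean, 3 to each member called at E3.75, mean of at least 10 CPM). Promoter windows and names came from RefSeq tables and the 3′ overlap check from GENCODE gene models, neither of the build of the files, so no position in the files was used. A Mcm4 window was not used here. The Mcm6 transcript was not matched in the overlap check.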

Additional observations from a re-analysis of the deposited data

Results flagged for a closer look

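Among the 6 MCM genes and the 9 list genes named in the report, Cdk1, the kinase of mitotic entry, was the one whose genotype effect differed between stages in the test of the difference itself. Its level was 228, 221 and 207 CPM in wild type libraries and 272, 297 and 279 CPM in null libraries at E2.5. There the null libraries were all higher, as they were for 965 of all 7082 genes. At E3.75 the null libraries were all lower, as they were for 15.7% of all genes. The fold change was 0.37 at E2.5 (adjusted p = 0.0924) and -0.57 at E3.75 (adjusted p = 0.0403), and the difference, E3.75 minus E2.5, was -0.95 on the log2 scale (SE 0.23, 95% interval -1.43 to -0.48, adjusted p = 0.0463, limma). It lay below 0 in all 24 alternatives and passed in 11 of them, with adjusted p from 0.0153 in edgeR to 0.880 with the first 2 libraries of each group. Leaving out 1 library at E2.5 or E3.75 ended the call except for wild type library 2 of either stage, and leaving out wild type library C or null library 3 of E4.5, which enter through the shared spread, ended it too. The cause was not tested.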

How the results depend on the processing

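Of the 6 MCM genes at E3.75, Mcm2 passed in 17 of 17 alternatives, Mcm6 in 11 and Mcm5 in 6, and each of the 6 stayed below 0. The number of MCM genes called at E3.75, 3 with all libraries, was 1 with the first 2 libraries of each group and 1 in the fit over all 18 libraries, and 1 to 3 when single libraries were left out. Leaving out single libraries gave 0 to 1 MCM genes at E2.5 and 0 to 1 for the difference between E3.75 and E2.5. All genes called at E2.5 numbered 42, and 99 with TMM factors, 93 with DESeq2 size factors, 179 in edgeR, 232 in DESeq2, 82 with thinned reads, 1 with the first 2 libraries, 139 in the fit over all libraries and 1 to 773 without single libraries, the highest without wild type library 2. At E3.75 they numbered 545, and 288 in DESeq2, 300 with thinned reads, 155 with the first 2 libraries, 213 in the fit over all libraries and 209 to 652 without single libraries. At E4.5 they numbered 0, and 1 with a pseudocount of 5, 2 with TMM factors, 42 in edgeR, 112 in DESeq2, 7 with thinned reads, 221 in the fit over all libraries and 0 to 120 without single libraries, the highest without null library 1. Replication genes called at E3.75 numbered 3, and 0 in DESeq2, 1 with thinned reads, 0 with the first 2 libraries and 0 to 4 without single libraries. At E2.5 they numbered 0, and 1 in the fit over all libraries and 0 to 4 without single libraries.

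Signs that turned belonged to values that did not pass. At E2.5 Mcm3 stood at 0.036 with thinned reads, and without single libraries Mcm2 ranged from -0.28 to 0.081, Mcm3 from -0.14 to 0.0077, Mcm5 from -0.46 to 0.028 and Mcm6 from -0.21 to 0.016. At E4.5 Mcm7 stood at -0.027 with TMM factors, -0.017 with DESeq2 size factors, -0.0082 in edgeR and -0.0065 in DESeq2, and ranged from -0.026 to 0.11. For E3.75 minus E2.5 the difference ranged from -0.076 to 0.14 for Mcm4 and from -0.19 to 0.068 for Mcm7. For E4.5 minus E3.75 it was -0.010 with TMM factors and -0.093 in edgeR for Mcm4, and ranged from -0.090 to 0.19 for Mcm4, -0.13 to 0.076 for Mcm3 and -0.069 to 0.29 for Mcm5. For E4.5 minus E2.5 it ranged from -0.19 to 0.16 for Mcm2, -0.031 to 0.25 for Mcm4, -0.41 to 0.078 for Mcm5 and -0.32 to 0.017 for Mcm6. The cause of these changes was not tested.

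Deviations of same-numbered wild type and null libraries correlated at -0.0030 to 0.121 at E2.5 and -0.031 to 0.010 at E3.75, and not every library correlated best with its own number, so the numbers were not taken as pairs. With the replicate block 30 genes were called at E2.5 and 438 at E3.75, and of the MCM genes 0 and 3. At E3.75 Dut (adjusted p = 0.0551, limma) and Mki67 (0.0504) were then not called. No paired analysis was possible at E4.5 because the wild type columns carry no replicate number. Depth of 28 to 768 reads per value limits what could be detected.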
